A study of Danio rerio with 8 samples.

Results

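Primordial germ cells (PGCs), which later give rise to eggs and sperm, were set against somatic cells of zebrafish embryos at 24 h post fertilisation (hpf), the pharyngula stage. The 4 libraries labelled with this stage were taken from 8 in all, 2 from PGCs and 2 from soma, and the other 4 were PGCs and soma at 7 hpf. Both cell populations came from embryos of the transgenic line kop-EGFP-F-nos3'UTR, whose name in the study also gives cry-DsRed, so PGC and soma embryos carried the same transgene and neither group was treated. Farnesylated EGFP from this transgene labelled the PGCs, and FACS (fluorescence-activated cell sorting) split these from the soma. The soma libraries therefore pool the somatic cell types of the embryo. The reporter messenger carries the 3′UTR of nanos3, and how many nanos3 counts came from the transgene was not tested.

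In zebrafish, PGCs are set aside by inheriting maternal germ plasm, an assembly of RNA-binding proteins and messengers that protects and translates germ cell transcripts. Tudor-domain and Piwi proteins build the germ granules around the nucleus, where piRNAs, small RNAs that silence transposons, are made. The chemokine Cxcl12 guides their migration through the embryo, after which they gather where the gonad will form.

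The PGC libraries at 24 hpf held 21073240 and 20702515 expected counts and the soma libraries 15633974 and 19295377, so that 3 counts, the floor used for genes without a read, stood for 0.158 to 0.206 CPM (counts scaled to a library of a common size). Levels are given as scaled CPM, the value after trimmed-mean (TMM) scaling of the libraries in edgeR. Among 13888 genes that averaged 50 counts or more, Spearman's correlation across genes was 0.938 between the PGC libraries and 0.903 between the soma libraries. Between the groups it ran from 0.873 to 0.937, so the PGC libraries were about as close to soma replicate 2 as to each other. Soma replicates 1 and 2 differed in several of the marker lists described below. Muscle genes summed to 3630 and 39937 CPM, and endoderm, liver and yolk genes to 3794 and 733 CPM. What lay behind the correlations was not tested. Per length, in TPM (transcript abundance on a scale common to all libraries), 9 of the 10 most abundant genes were common to PGCs and soma, among them the signal recognition particle RNA rn7sl1, with 116503 and 124323 TPM in PGCs and 89423 and 96588 TPM in soma. Of those 9, 3 unnamed IDs had identical TPM in every library, which marks near-identical copies whose reads cannot be told apart.

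The main question was which genes differed between PGCs and soma at 24 hpf. By edgeR's quasi-likelihood test with Benjamini-Hochberg adjustment, 6 of 19885 tested genes were higher in PGCs (0.0302% of all), where a call needed an adjusted p below 0.05 and a log2 fold change of 1.5 or more in size. No gene was lower in PGCs at this threshold (0 of 19885), although 210 genes had an unadjusted p under 0.05 in that direction. The 6 genes were nanos3, ddx4, ca15b, tdrd15, tdrd7a and dnd1. Other tools made more calls: DESeq2 called 51 genes higher and 30 lower of 25923. edgeR's exact test on the 4 libraries called 83 higher and 75 lower of 19135. Some other edgeR fits made fewer calls: a quasi-likelihood fit of the 4 libraries alone called 1 gene and glmTreat, which tests against the minimum fold change, called 3. Without the count filter the quasi-likelihood fit of all libraries made more, with 63 genes higher and 40 lower of 25923. With the replicate number as a block within each stage no gene was called (0 of 19885). The study's splicing methods describe paired comparisons of PGCs and soma at each stage. Whether same-numbered libraries came from the same embryos is not stated, and the main fit had no such block. The 6 genes were among the calls of DESeq2 and of the exact test. With 2 libraries a group, left-out libraries moved the count as well: 3 genes (nanos3, ddx4 and ca15b) stayed called without PGC replicate 1 and without PGC replicate 2, while 15 were called without soma replicate 2.

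The called genes included RNA-binding factors known for their part in germ cell survival. nanos3, which encodes an RNA-binding repressor of translation needed to maintain germ cells, had 109 and 61.2 CPM in PGCs, against 0.26 and 0.69 CPM in soma. Its log2 fold change was 7.46 ± 0.51 (SE, edgeR adjusted p = 0.00285). The DEAD-box RNA helicase gene ddx4 (vasa) had 213 and 187 CPM in PGCs, against 1.72 and 2.47 CPM in soma. All 4 libraries of ddx4 lay close to their own group and far from the other, with a log2 fold change of 6.57 ± 0.55 (edgeR adjusted p = 0.00676). dnd1 encodes an RNA-binding protein that shields germ cell messengers from microRNAs. It had 53.7 and 43.1 CPM in PGCs, against 0.13 and 1.37 CPM in soma, a log2 fold change of 6.0 ± 0.70 (edgeR adjusted p = 0.0436). The dnd1 call was lost without PGC replicate 1 (edgeR adjusted p = 0.126) and without PGC replicate 2 (edgeR adjusted p = 0.0759).

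**Figure D1:**
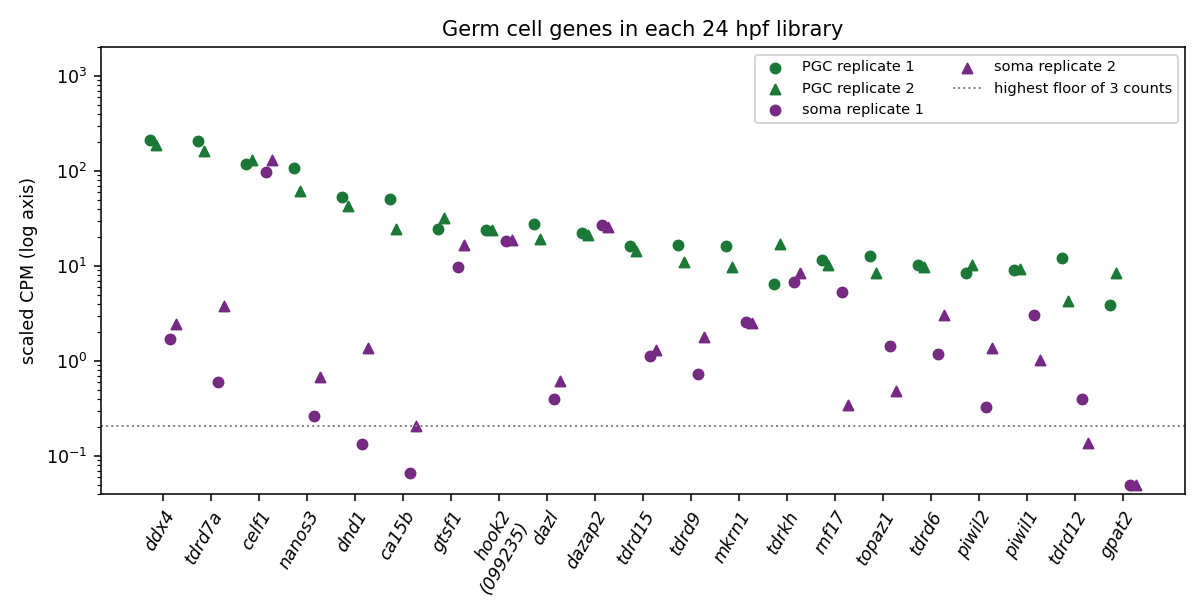
Scaled CPM (log axis) of germ plasm and piRNA genes with a mean of at least 5 CPM in a group, plus tdrd15, in each 24 hpf library, PGCs in green left of soma in purple and replicates as circles and triangles, with 0 counts drawn at 0.05. ddx4 sits at 213 and 187 CPM in PGCs and 1.72 and 2.47 CPM in soma, whereas the points of celf1 overlap between the groups.

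The other called genes were Tudor-domain genes and a carbonic anhydrase gene. tdrd7a, whose Tudor-domain protein shapes germ granules, had 208 and 162 CPM in PGCs, against 0.60 and 3.77 CPM in soma, a log2 fold change of 6.4 ± 0.73 (edgeR adjusted p = 0.0407). Its adjusted p in edgeR was 0.111 without PGC replicate 1 and 0.0624 without PGC replicate 2. tdrd15, another Tudor-domain gene, had 16.4 and 14.2 CPM in PGCs, against 1.13 and 1.3 CPM in soma, a log2 fold change of 3.65 ± 0.38 (edgeR adjusted p = 0.0263). Its call was lost whichever 24 hpf library was left out, with edgeR adjusted p of 0.126 and 0.0759 without PGC replicates 1 and 2 and 0.288 and 0.0761 without soma replicates 1 and 2. ca15b, a carbonic anhydrase gene whose transcripts localise to germ cells in zebrafish, had 50.4 and 24.7 CPM in PGCs, against 0.07 and 0.21 CPM in soma. The soma values rest on 1 and 3 counts, and the ratio of the groups was 285 with a 95% interval of 111 to 1048 from counting error only. The edgeR log2 fold change of ca15b was 8.03 ± 0.69 (adjusted p = 0.00676).

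Per length, nanos3 was the most abundant of the germ cell genes listed here, with 53.4 and 23.4 TPM in PGCs against 0.17 and 0.32 TPM in soma. Reads of the reporter's nanos3 3′UTR may be part of this level and of the nanos3 fold change, which was not tested. ddx4 followed with 33.1 and 25.8 TPM in PGCs, against 0.43 and 0.39 TPM in soma. These levels overlapped between the genes, since the lower nanos3 library was below both ddx4 libraries. In TPM, tdrd7a had 26.3 and 16.0 in PGCs, dnd1 12.1 and 7.58, and tdrd15 1.17 and 0.79, all with at most 0.51 TPM in soma.

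Most of the listed germ plasm and germ cell RNA regulators were higher in PGCs. This list and the others were chosen with earlier results of these data known, so their direction is no independent result. Of 18 IDs tested, 5 passed the threshold, all higher in PGCs, and 13 had both PGC libraries above both soma libraries with a log2 fold change of at least 1.5, against 5.57% of all genes. The median log2 fold change was 4.99, or 3.69 with the genes without a soma count set at their bound, beside 0.02 over all tested genes. Summed over the list, PGCs had 879 and 718 CPM and soma 155 and 194 CPM. Most of the soma sum was celf1, which encodes a widely used RNA-binding protein and had 117 and 129 CPM in PGCs and 98.3 and 129 CPM in soma.

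Among list members that did not pass, dazl, an RNA-binding gene of germ cells, had 27.9 and 19.0 CPM in PGCs, against 0.40 and 0.62 CPM in soma (log2 fold change 5.51 ± 0.92, edgeR adjusted p = 0.296). Its log2 fold change ran from 3.08 to 5.85 over the alternatives, and it was called in at least 1 of them. The study's own edgeR analysis, with libraries of further stages, reported dazl as elevated in PGCs at every stage examined. topaz1, a germ cell gene needed for spermatogenesis in mouse, had 12.7 and 8.42 CPM in PGCs, against 1.46 and 0.48 CPM in soma. mkrn1, a makorin RING finger gene, had 16.1 and 9.76 CPM in PGCs, against 2.58 and 2.54 CPM in soma. All 3 genes had no overlap between the groups. tdrd6, whose product helps to assemble germ plasm with Bucky ball, had 10.2 and 9.88 CPM in PGCs, against 1.19 and 3.02 CPM in soma. gra, a germ plasm transcript, had 2.85 and 5.09 CPM in PGCs, against 0 and 0.34 CPM in soma.

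Another 3 members had no soma count at all, so their folds are lower bounds against 3 counts per library. The RNA-binding gene rbm46 had 4.38 and 3.94 CPM in PGCs and was at least 20.6-fold higher there. elavl2, an RNA-binding gene of germ cells and neurons, had 3.70 and 2.54 CPM in PGCs and was at least 15.4-fold higher. buc, the organiser of the oocyte's Balbiani body, had only 0.42 and 1.33 CPM in PGCs, at least 4.34-fold higher than in soma. Not all germ plasm genes differed: the hook2 ID ENSDARG00000099235, a microtubule linker gene, had 23.9 and 24.1 CPM in PGCs and 18.3 and 18.9 CPM in soma, although reads are shared between its IDs. dazap2, a gene whose product binds DAZ proteins, had 22.2 and 21.4 CPM in PGCs and 27.1 and 25.7 CPM in soma, and rgs14a, a regulator of G protein signalling whose messenger is part of germ plasm, overlapped at 1.00 and 0.73 CPM in PGCs and 0.07 and 0.96 CPM in soma.

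The genes of the piRNA pathway were higher in PGCs in 13 of 13 fitted values, and none passed the threshold. Of 14 matched IDs, these 13 had enough counts in some group to be tested, so they are not a fair sample. In 10 of the 13 the log2 fold change was at least 1.5 without overlap between groups, against 5.57% of all genes, and 10 had an unadjusted p under 0.05 in edgeR, against 1.97% of all genes. The median log2 fold change was 3.44. The summed level was 107 and 123 CPM in PGCs, against 31.2 and 30.4 CPM in soma. DESeq2 called 5 genes of the list and edgeR's exact test called 5, all higher in PGCs. Among all genes, they called 51 of 25923 and 83 of 19135 higher.

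The Piwi proteins themselves carry the piRNAs. piwil2 had 8.40 and 10.2 CPM in PGCs, against 0.33 and 1.37 CPM in soma (log2 fold change 3.44 ± 0.82, edgeR adjusted p = 0.730). piwil1 had 9.03 and 9.27 CPM in PGCs, against 3.05 and 1.03 CPM in soma, a smaller log2 fold change of 2.16 ± 0.71 with no overlap. Of the factors that build piRNA granules, tdrd9, a Tudor-domain helicase gene, had 16.6 and 11 CPM in PGCs, against 0.73 and 1.78 CPM in soma. Its log2 fold change was 3.46 ± 0.53 (edgeR adjusted p = 0.208). tdrd12 had 12.1 and 4.30 CPM in PGCs, against 0.40 and 0.14 CPM in soma, and tdrd1, the Piwi-binding Tudor scaffold gene, had 2.06 and 5.64 CPM in PGCs, against 0.40 and 0.21 CPM in soma. For all of these Tudor genes the lower PGC library was above the higher soma library in CPM. In TPM, tdrd1 overlapped at 0.23 and 0.50 in PGCs and 0.47 and 0.02 in soma.

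The piRNA genes gpat2, pld6 and asz1 were low but did not overlap between the groups. gpat2, a mitochondrial acyltransferase gene that takes part in piRNA production in mouse, had 3.85 and 8.48 CPM in PGCs and no count in soma, at least 30.5-fold higher (edgeR adjusted p = 0.0917). pld6, the zucchini endonuclease gene, had 2.01 and 2.54 CPM in PGCs, against 0 and 0.14 CPM in soma. asz1, a germ granule gene at the mitochondrial surface in mouse, had 2.85 and 1.70 CPM in PGCs, against 0.26 and 0 CPM in soma. The smallest differences of the pathway were in gtsf1 and tdrkh. gtsf1 had 24.8 and 31.9 CPM in PGCs and 9.73 and 16.5 CPM in soma. tdrkh, the only piRNA gene tested whose libraries overlapped in CPM, had 6.49 and 17.0 CPM in PGCs and 6.82 and 8.44 CPM in soma. rnf17 had 11.5 and 10.4 CPM in PGCs, against 5.36 and 0.34 CPM in soma, with the soma libraries far from each other. The piRNA methyltransferase gene henmt1 had 3.96 and 5.15 CPM in PGCs, against 2.91 and 0.34 CPM in soma, and tdrd5 had 2.90 and 5.03 CPM in PGCs, against 1.26 and 0.14 CPM in soma.

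Meiosis genes were mixed and low. Of 19 listed, 10 were abundant enough to test, and none passed in edgeR. Of these 10, 4 had an unadjusted p under 0.05 and were higher in PGCs, against 1.97% of all genes. DESeq2 called 2 higher and the exact test 2, against 51 of 25923 and 83 of 19135 among all genes. In 6 of the 10, both PGC libraries were above both soma libraries with a log2 fold change of at least 1.5, against 5.57% of all genes. Since genes entered the test only with enough counts in some group, those 10 are not a fair sample of the list. adad1, a germ cell gene related to RNA-editing deaminases, had 3.80 and 7.09 CPM in PGCs and no soma count, at least 26.9-fold higher. smc1b, the meiotic cohesin subunit gene, had 3.27 and 7.76 CPM in PGCs, against 0 and 0.14 CPM in soma (log2 fold change 6.17 ± 1.46, edgeR adjusted p = 0.728). sycp1 and sycp2, genes of the synaptonemal complex that joins paired chromosomes, had 2.06 and 0.36 CPM and 3.33 and 1.51 CPM in PGCs, against 0 and 0.21 CPM and 0.99 and 0 CPM in soma. In TPM both genes overlapped between the groups. sycp1 had 0.28 and 0.04 TPM in PGCs and 0 and 0.08 TPM in soma, and sycp2 had 0.46 and 0.16 TPM in PGCs and 0.18 and 0 TPM in soma. msh4, a crossover gene, had 1.16 and 0.97 CPM in PGCs and no soma count, at least 5.27-fold higher. The mismatch repair gene mlh3, which dividing somatic cells also use, overlapped, as did sycp3 at 0 and 0.18 CPM in PGCs and 0.07 and 0.41 CPM in soma. stag3, a cohesin subunit gene, had 0.21 and 0.42 CPM in PGCs and 0.79 and 0.96 CPM in soma.

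Egg and oocyte genes were low in both populations, with 6.24 CPM as the highest value in a library. Of 12 tested, none passed in edgeR, and 4 had an unadjusted p under 0.05 and were higher in PGCs, against 1.97% of all genes. DESeq2 called 3 higher and the exact test 1, against 51 of 25923 and 83 of 19135 among all genes. In 4 of the 12, both PGC libraries were above both soma libraries by at least 1.5 on the log2 scale, against 5.57% of all genes. Another 2 were lower in both PGC libraries, against 17.9% of all genes. bmp15 had 0.32 and 0.30 CPM in PGCs, against 1.26 and 0.55 CPM in soma. zp2.1 had 1.53 and 1.33 CPM in PGCs, against 2.58 and 1.99 CPM in soma. Only bmp15 fell by at least 1.5 on the log2 scale, against 2.28% of all genes. The clearest of the higher genes was gdf3, the maternal TGF-β ligand gene also known as vg1. It had 3.80 and 6.24 CPM in PGCs, against 0.33 and 0.41 CPM in soma. Its log2 fold change was 3.73 ± 0.71 (edgeR adjusted p = 0.357). zp3d.1, an egg coat protein gene, had 2.90 and 2.00 CPM in PGCs, against 0.07 and 0.27 CPM in soma. The list's median was 1.48, or 1.23 over 9 genes with those without a soma count set at their bound and those at or under the floor in both groups left out.

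The largest fitted changes were ranked among 122 genes with a symbol, an unadjusted p under 0.05 and no overlap between groups. These genes also had a mean of at least 5 CPM in PGCs. The 10 largest included 7 members of the germ plasm, piRNA and meiosis lists. Those lists hold 41 of the 19885 tested genes. They were chosen with earlier results of these data known, so this count is no independent result. The remaining 3 of the 10 largest were srsf3a, si:ch211-191a6.3 and ccdc106b. ccdc106b, a coiled-coil gene, had 5.12 and 7.70 CPM in PGCs, against 0 and 0.07 CPM in soma (edgeR adjusted p = 0.118). si:ch211-191a6.3 had 6.44 and 4.06 CPM in PGCs and no soma count, with reads shared between genes. The splicing factor gene srsf3a had 1.06 and 14.5 CPM in PGCs and no soma count, so its rank rested on PGC replicate 2.

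**Figure D2:**
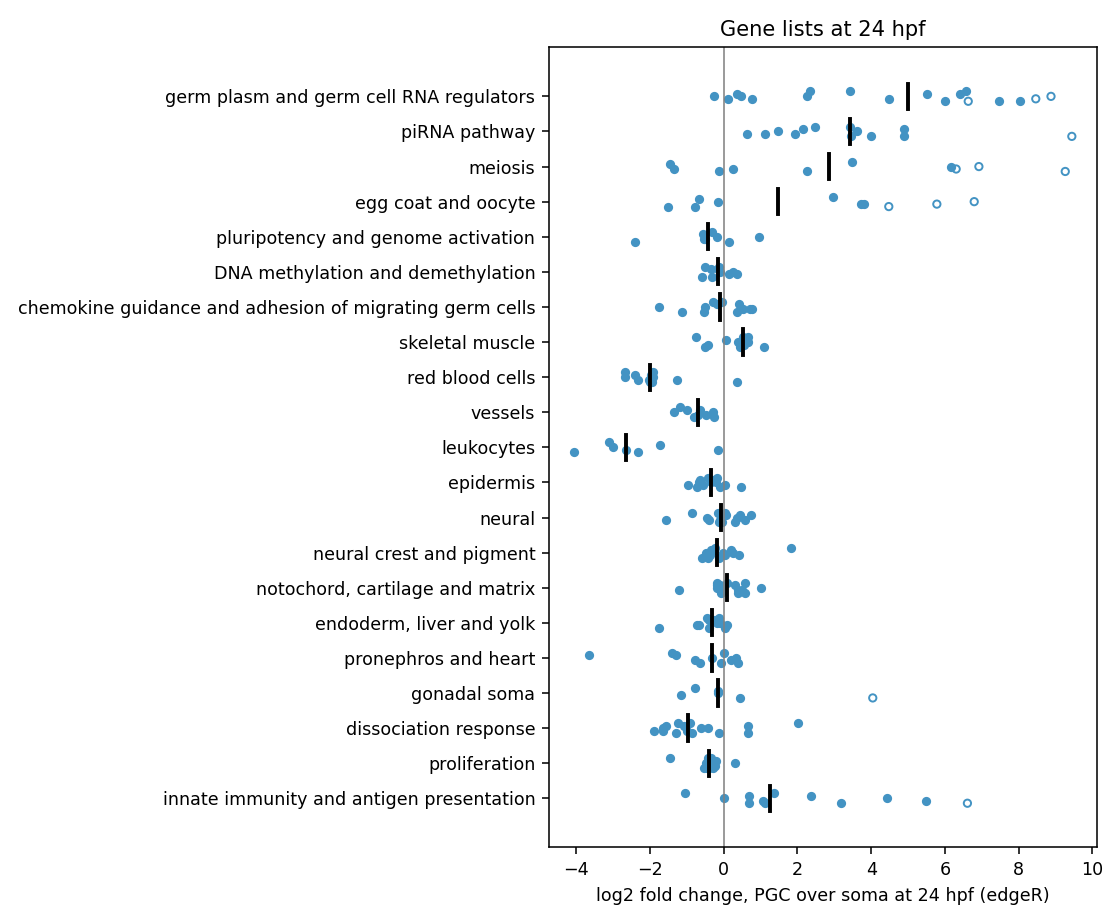
edgeR log2 fold change of PGCs over soma at 24 hpf for the tested genes of 21 lists with a finite SE, 1 point per gene. Hollow points are genes without a count in all libraries of a group, and black bars are list medians. The medians include tested genes not drawn, such as btg4 and zar1l, which had no count at 24 hpf. The germ plasm median is 4.99 and the piRNA median 3.44, whereas the red blood cell and leukocyte medians are -1.99 and -2.64.

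Blood genes were the somatic lists with the lowest values in PGCs. In bulk libraries, fewer cells of a type and less RNA per cell cannot be told apart. Of 12 red blood cell IDs, none passed the threshold, 7 had an unadjusted p under 0.05 in edgeR (1.06% of all genes in that direction), and 10 were lower in PGCs without overlap and by at least 1.5 on the log2 scale, against 2.28% of all genes. The median log2 fold change was -1.99, and the summed level was 177 and 152 CPM in PGCs, against 792 and 593 CPM in soma. DESeq2 called 3 of these genes lower in PGCs and edgeR's exact test called 7, against 30 of 25923 and 75 of 19135 among all genes.

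The embryonic globin gene hbae3 had 33.0 and 36.8 CPM in PGCs, against 137 and 132 CPM in soma (log2 fold change -1.94 ± 0.30, edgeR adjusted p = 0.296). hbbe3, another embryonic globin gene, had 24.9 and 36.1 CPM in PGCs, against 143 and 106 CPM in soma. The membrane skeleton gene epb41b had 44.5 and 34.5 CPM in PGCs, against 233 and 162 CPM in soma. In all 3 genes the soma libraries lay well above both PGC libraries. alas2, which starts haem synthesis in red cells, had 14.8 and 9.09 CPM in PGCs, against 54.0 and 41.0 CPM in soma. gata1a, the transcription factor gene of the red cell line, had 1.90 and 1.58 CPM in PGCs, against 13 and 9.20 CPM in soma.

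Further genes of early blood were picked after their values were seen, because they were lower in PGCs, so their direction is fixed by that choice. fech and urod, which encode later enzymes of haem synthesis, had 31.2 and 24.2 CPM and 17.3 and 15.3 CPM in PGCs, against 106 and 87.6 CPM and 58.9 and 39.4 CPM in soma. blf, a zinc finger gene of blood precursors, had 5.97 and 9.57 CPM in PGCs, against 52.3 and 45.2 CPM in soma (log2 fold change -2.65 ± 0.45, edgeR adjusted p = 0.296). The related gene drll.2, named by its rank among the 10 largest falls in fitted value, had 0.74 and 0.61 CPM in PGCs, against 7.48 and 7.07 CPM in soma, with reads shared between the drl genes.

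Leukocyte genes were lower still relative to soma. Of 8 matched IDs, 7 had enough counts in some group to be tested, so those 7 are not a fair sample of the list. None of the 7 passed in edgeR, and 2 had an unadjusted p under 0.05, against 1.06% of all genes in that direction. DESeq2 called 2 lower and the exact test 3, against 30 of 25923 and 75 of 19135 among all genes. Of the 7, 6 were lower in PGCs without overlap and by at least 1.5 on the log2 scale, against 2.28% of all genes. The median log2 fold change was -2.64, and the sum was 14.1 and 26.1 CPM in PGCs, against 114 and 68.2 CPM in soma. spi1 (ENSDARG00000000767), the Pu.1 transcription factor gene of myeloid cells, had 1.06 and 0.85 CPM in PGCs, against 23.2 and 8.99 CPM in soma (log2 fold change -4.07 ± 0.86, edgeR adjusted p = 0.711). lcp1, the L-plastin gene of leukocytes, had 3.38 and 7.76 CPM in PGCs, against 53.4 and 35.5 CPM in soma. coro1a, an actin regulator gene of leukocytes, had 2.69 and 2.48 CPM in PGCs, against 18.8 and 7.41 CPM in soma. The exception was csf1ra, a receptor gene of macrophages and pigment cells, which overlapped at 6.49 and 13.1 CPM in PGCs and 11.1 and 10.6 CPM in soma.

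Vessel genes differed less. Of 9 tested, 8 were lower in both PGC libraries, against 17.9% of all genes, none by as much as 1.5 on the log2 scale, and the median was -0.71. None passed in edgeR, DESeq2 or the exact test, and 1 had an unadjusted p under 0.05, against 1.06% of all genes in that direction. cdh5, the junction protein gene of endothelium, had 37.0 and 32.7 CPM in PGCs, against 56.2 and 65.3 CPM in soma. tek, an angiopoietin receptor gene, had 9.40 and 4.73 CPM in PGCs, against 17.9 and 18.1 CPM in soma.

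A pair of hatching gland genes was likewise picked for low values in PGCs. The hatching enzyme gene he1.2 had 30.4 and 21.5 CPM in PGCs, against 103 and 129 CPM in soma (log2 fold change -2.16 ± 0.35, edgeR adjusted p = 0.339). The cathepsin gene ctslb had 19.9 and 14.1 CPM in PGCs, against 103 and 110 CPM in soma, with reads shared between copies. bhlha15, a transcription factor gene of secretory cells and in the 10 largest falls in fitted value, had 0 and 0.36 CPM in PGCs, against 6.16 and 4.19 CPM in soma (log2 fold change -4.80 ± 1.81). The rest of those 10 were steap3, fmn1, si:dkey-150i13.2, tgfb5, si:dkey-185m8.2, the nmt1 ID ENSDARG00000057206 and f8, with means of 5.13 to 14.6 CPM in soma, and none of the 10 passed.

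Transcripts of other somatic tissues were also present in the PGC libraries. The 15 skeletal muscle IDs summed to 23819 and 41633 CPM in PGCs, against 3630 and 39937 CPM in soma, and none passed in edgeR, DESeq2 or the exact test or had an unadjusted p under 0.05 in edgeR. myhz1.1, a fast myosin heavy chain gene, had 8609 and 14773 CPM in PGCs, against 119 and 10937 CPM in soma. actc1b, an actin gene of muscle, had 5813 and 10439 CPM in PGCs, against 1232 and 9010 CPM in soma. For both genes soma replicate 1 was low and the other 3 libraries were high. The list's median log2 fold change of 0.53 became -0.25 without soma replicate 1 and 2.72 without soma replicate 2, so no direction was assigned.

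Epidermal keratin genes were abundant in both populations, and several were low in PGC replicate 1. krt4, a keratin gene of the outer layer, had 2420 and 6372 CPM in PGCs, against 6762 and 7254 CPM in soma. Its log2 fold change was -0.67, with -1.53 and -0.14 as the ends of its range over the alternatives, both from leaving out a PGC library. The keratin gene cyt1 had 542 and 1730 CPM in PGCs, against 1317 and 1467 CPM in soma, and krt8 had 1050.2 and 1207 CPM in PGCs, against 1224 and 1320 CPM in soma. The apolipoprotein gene apobb.1, active in the yolk cell layer, had 779 and 1388 CPM in PGCs, against 2094 and 215 CPM in soma, with the 2 soma libraries on either side of both PGC libraries. The collagen gene col2a1 (ENSDARG00000069093), of notochord and cartilage, had 3730 and 3849 CPM in PGCs, against 1933 and 3852 CPM in soma. The neuronal RNA-binding gene elavl3 had 208 and 192 CPM in PGCs and 179 and 238 CPM in soma, and the neural crest gene crestin 71.4 and 87.4 CPM in PGCs and 118 and 53.9 CPM in soma. The medians of the epidermal, neural, neural crest, matrix, endoderm and pronephros lists lay between -0.35 and 0.09 on the log2 scale, and none of their members passed in edgeR or DESeq2. The only one with an unadjusted p under 0.05 and a call in the exact test was neurod1, a neuronal differentiation gene, which was lower without overlap at 9.82 and 7.21 CPM in PGCs, against 21.8 and 29.1 CPM in soma. Genes of the gonadal soma were mostly near the floor, and sox9 (ENSDARG00000003293), which many tissues express, had 79.9 and 66.0 CPM in PGCs and 86.3 and 76.7 CPM in soma. The part of somatic RNA carried into the PGC libraries was not tested.

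**Figure D3:**
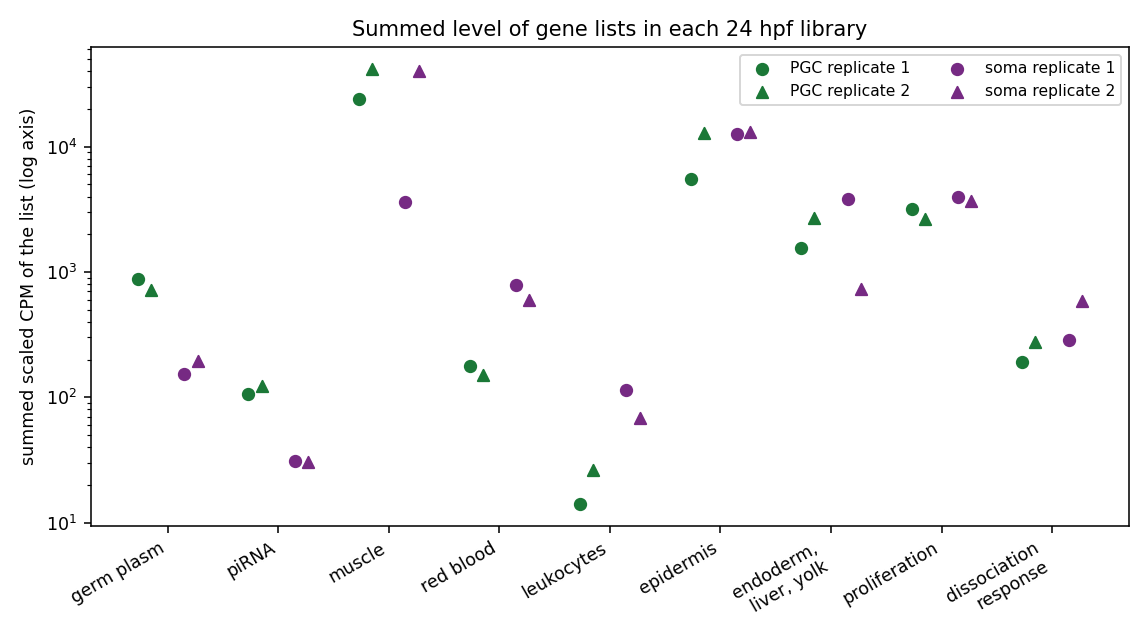
Summed scaled CPM (log axis) of 9 gene lists in each 24 hpf library, PGCs in green left of soma in purple, replicates as circles and triangles. Germ plasm sums are 879 and 718 CPM in PGCs and 155 and 194 CPM in soma, muscle sums are low only in soma replicate 1 (3630 CPM), and leukocyte sums are 14.1 and 26.1 CPM in PGCs and 114 and 68.2 CPM in soma.

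Genes of the PGCs' migration were not set apart at this stage. Of 12 chemokine and adhesion IDs, none passed in edgeR, DESeq2 or the exact test, and the median was -0.11. With an unadjusted p under 0.05, 1 was lower in PGCs, against 1.06% of all genes. The reference name table gives the symbol cxcr4, the Cxcl12 receptor, to 2 IDs without saying which paralogue each is. ENSDARG00000041959 had 8.03 and 7.51 CPM in PGCs, against 5.96 and 4.94 CPM in soma, whereas ENSDARG00000057633 had 5.23 and 1.51 CPM in PGCs, against 11.5 and 11.3 CPM in soma. The cxcr4 IDs thus differed in opposite directions, by 0.51 ± 0.48 and -1.75 ± 0.60 on the log2 scale, with an edgeR adjusted p of 1 for both. cdh1, the E-cadherin gene, had 76.8 and 103 CPM in PGCs and 126 and 128 CPM in soma, and cxcl12b, a ligand gene, overlapped. rac1a, a small GTPase gene of cell motility, had 74.7 and 72.1 CPM in PGCs and 61.0 and 53.4 CPM in soma, but its fitted fold change was below 0 on the TPM scale.

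DNA methylation genes were close between PGCs and soma. Of 10 tested, none passed in edgeR, DESeq2 or the exact test, none had an unadjusted p under 0.05 in edgeR, and the median log2 fold change was -0.15. dnmt1, the maintenance methyltransferase gene, had 187 and 146 CPM in PGCs, against 269 and 235 CPM in soma (log2 fold change -0.60 ± 0.29). Its partner uhrf1 had 287 and 206 CPM in PGCs, against 355 and 352 CPM in soma. The oxidase gene tet2 overlapped at 126 and 110 CPM in PGCs and 116 and 139 CPM in soma, and tet3 did as well, at 124 and 97.0 CPM in PGCs and 129 and 118 CPM in soma. For tet1 the values were 46.0 and 45.5 CPM in PGCs and 45.1 and 37.6 CPM in soma, but its fitted fold change was below 0 on the TPM scale.

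Proliferation genes were slightly lower in PGCs as a group. Of 18 tested, none passed in edgeR, DESeq2 or the exact test and none had an unadjusted p under 0.05 in edgeR, but 15 were lower in both PGC libraries, against 17.9% of all genes, with a median of -0.39. pcna, the DNA polymerase clamp gene, had 332 and 289 CPM in PGCs, against 451 and 411 CPM in soma (log2 fold change -0.47 ± 0.22, edgeR adjusted p = 1). mcm2, a subunit gene of the replicative helicase, had 303 and 254 CPM in PGCs, against 415 and 384 CPM in soma. mki67, a marker gene of cycling cells, had 748 and 514 CPM in PGCs, against 858 and 781 CPM in soma. Only ccna2, the cyclin A gene, was higher in both PGC libraries, with 68.8 and 66.0 CPM in PGCs and 59.6 and 48.7 CPM in soma. Genes of the response to dissociation, a list that moves when tissue is taken apart for sorting, summed to 193 and 276 CPM in PGCs, against 285 and 585 CPM in soma. None of the 16 tested passed in edgeR, DESeq2 or the exact test. With an unadjusted p under 0.05, 3 were lower in PGCs, against 1.06% of all genes. The median of the 16 was -0.96. btg2, an immediate-early antiproliferative gene, had 47.4 and 44.5 CPM in PGCs, against 88.0 and 94.7 CPM in soma.

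Of the pluripotency and genome activation genes, none of 8 passed in edgeR or DESeq2. The SoxB1 genes sox3 and sox19a had 103 and 76.9 CPM and 93.7 and 66.1 CPM in PGCs, against 109 and 95.5 CPM and 111 and 89.7 CPM in soma. klf17, which is also expressed in blood and the hatching gland in zebrafish, was the only member without overlap, with 9.03 and 3.70 CPM in PGCs, against 40.8 and 27 CPM in soma. It alone had an unadjusted p under 0.05 and was called by the exact test. nanog and pou5f3 were low in both, nanog at 0.95 and 2.91 CPM in PGCs and 0 and 1.99 CPM in soma.

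The innate immunity genes listed were mostly higher in PGCs. Their list was chosen with earlier results of these data known, so its direction is no independent result. Of 16 IDs on the list, 12 were tested. Genes entered the test only with enough counts in some group, so those 12 are not a fair sample of the list. None of the 12 passed in edgeR, and 3 had an unadjusted p under 0.05, against 1.97% of all genes. DESeq2 called 1 higher and the exact test 2, against 51 of 25923 and 83 of 19135 among all genes. Of the 12, 8 were higher in both PGC libraries, against 19.2% of all genes. For 5 of them this was by at least 1.5 on the log2 scale, against 5.57% of all genes. The median was 1.24. rnf213b, a RING finger gene, had 8.03 and 8.24 CPM in PGCs, against 0.53 and 0.21 CPM in soma (log2 fold change 4.43 ± 0.98, edgeR adjusted p = 0.584). irf10, an interferon regulatory factor gene, had 3.12 and 3.82 CPM in PGCs, against 0 and 0.14 CPM in soma. isg15, an interferon-induced ubiquitin-like gene, had 0.69 and 1.03 CPM in PGCs and no soma count, at least 4.24-fold higher.

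The same contrast at 7 hpf, on other libraries, called 717 genes higher in PGCs (3.61%). Of the 6 genes called at 24 hpf, all but tdrd15 were higher in PGCs at 7 hpf as well, by 4.86 (ddx4) to 10.54 (ca15b) on the log2 scale. For nanos3 the difference was 7.46 at 24 hpf and 10.52 at 7 hpf, where PGCs had 596 and 639 CPM and soma 0.52 and 0.28 CPM. For dnd1 it was 6.0 at 24 hpf and 9.84 at 7 hpf. Among Tudor genes, tdrd7a differed by 6.4 at 24 hpf and 8.96 at 7 hpf. By contrast, tdrd15 differed by 3.65 at 24 hpf and -0.29 at 7 hpf (edgeR interaction adjusted p = 0.0845), and tdrd9 by 3.46 at 24 hpf and -0.38 at 7 hpf (edgeR interaction adjusted p = 0.123). At 7 hpf tdrd9 had 42.9 and 32.5 CPM in PGCs and 62.0 and 35.8 CPM in soma, with overlap between the groups. gpat2 also was in both groups at 7 hpf, with 25.4 and 28.1 CPM in PGCs and 21.6 and 10.3 CPM in soma. Of the 41 germ cell IDs tested, none passed the edgeR threshold for a difference between the stages, and 15 had an unadjusted p under 0.05, against 15.1% of all genes. DESeq2 tested 51 germ cell IDs and called 5 with a difference more positive at 24 hpf and 4 with one less positive. Among all 25923 genes it tested, it called 213 more positive and 512 less positive.

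**Figure D4:**
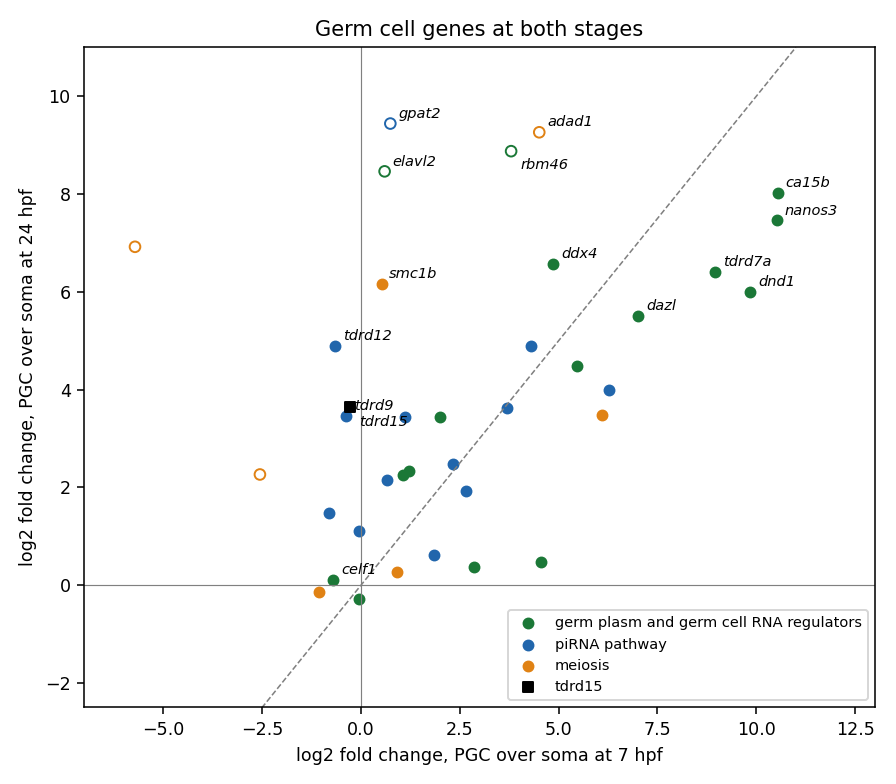
edgeR log2 fold change of PGCs over soma at 24 hpf (vertical axis) against that at 7 hpf (horizontal axis) for the germ cell genes with a mean of at least 1 CPM in a 24 hpf group, with hollow points for genes without a count in all libraries of a group at either stage and a dashed line of equal change. nanos3 (7.46 and 10.52) and dnd1 (6.0 and 9.84) lie right of the line, and tdrd15 (3.65 and -0.29) and tdrd9 (3.46 and -0.38) lie left of it.

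Across all genes, 1 of 19885 passed the test of a stage difference (0.00503%), while 2994 had an unadjusted p under 0.05. It was si:ch211-241j12.3 (ENSDARG00000043963), with 42.1 and 36.7 CPM in PGCs and 24.9 and 26 CPM in soma at 24 hpf. At 7 hpf it had 4494 and 3972 CPM in PGCs and 51.7 and 46.5 CPM in soma. The log2 fold change was 0.63 ± 0.21 at 24 hpf and 6.43 ± 0.27 at 7 hpf, a difference of -5.80 ± 0.32 (edgeR adjusted p = 0.000442).

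Isoform use was compared through the effective length of each gene, the mean length of its transcripts weighted by their abundance less the fragment length, after the shift common to a library was removed. In limma on log2 length, 4 of 5870 genes passed an adjusted p under 0.05 with a log2 change of at least 0.2, 2 longer (0.0341%) and 2 shorter (0.0341%) in PGCs, and 252 had an unadjusted p under 0.05 (4.29%). xpr1b, a phosphate exporter gene, measured 3365 and 3427 bases in PGCs, against 2745 and 2737 bases in soma, a log2 change of 0.31 ± 0.016 (limma adjusted p = 0.0283). uchl3, a deubiquitinase gene, measured 948 bases in both PGC libraries, against 790 and 786 bases in soma (limma adjusted p = 0.0283), where 59 and 157 counts were behind it. For both genes the groups lay apart, and the libraries of a group were close to each other. Part of this closeness was identical lengths: uchl3 measured 948 bases in every 7 hpf library as well. xpr1b measured 3427 bases in every 7 hpf library, the same as in PGC replicate 2 at 24 hpf. Identical lengths leave no spread to measure, so the small SE and p of these tests may understate the variation between replicates.

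Of the shorter ones, trak1, an adaptor gene of mitochondrial transport, measured 4064 and 3967 bases in PGCs, against 4771 bases in both soma libraries, a log2 change of -0.25 ± 0.015 (limma adjusted p = 0.0344). It also measured 4771 bases in every 7 hpf library, so its SE and p may likewise understate the variation between replicates. The unnamed gene ENSDARG00000090821 measured 1100 and 1083 bases in PGCs, against 1413 bases in both soma libraries (limma adjusted p = 0.0344). Its soma lengths were identical, so the same caution applies. Its call was lost without the shift correction (limma adjusted p = 0.0853) and with a median ratio for the shift (limma adjusted p = 0.0635). Few of these calls held when a library was left out: without PGC replicate 1, xpr1b and trak1 kept theirs, without PGC replicate 2 and without soma replicate 1 none of the 4 did, and without soma replicate 2 only uchl3 did. The number of calls then ran from 4 to 15, and the isoforms behind these lengths were not analysed here.

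**Figure D5:**
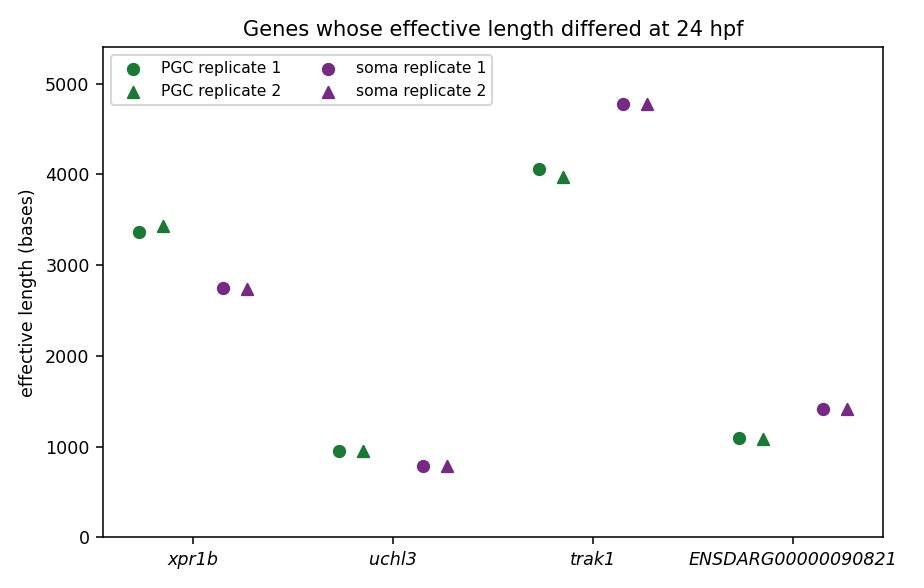
Effective length in bases, after removal of each library's shift, of the 4 genes that passed the length test at 24 hpf, PGCs in green left of soma in purple, replicates as circles and triangles. xpr1b is 3365 and 3427 bases in PGCs and 2745 and 2737 bases in soma, and trak1 4064 and 3967 bases in PGCs and 4771 bases in both soma libraries.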

How the data were processed

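RNA-seq libraries were made from sorted PGCs and somatic cells with a low-input stranded total RNA kit (SMARTer pico v2) and sequenced from both ends on a NovaSeq instrument. Per the labels and the study's methods, the authors trimmed reads with Trim Galore, used STAR for alignment to danRer10, and ran RSEM for quantification. The deposited expected counts are estimates of the reads of each gene by RSEM, and are not whole where several genes share reads. The deposited TPM values are abundances per length with a total common to all libraries, and the deposited effective lengths are in bases. Whether an earlier lane was merged in, and whether counting used strand, are not given in the sources used here, so overlapping and antisense genes are uncertain.

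Groups and replicate numbers were read from titles, and the study describes its RNA-seq replicates as biologically independent. Rounded expected counts went into edgeR 4.0.16 (R 4.3.3): filterByExpr, TMM scaling and a quasi-likelihood fit of all 8 libraries with 4 group means, with Benjamini-Hochberg adjustment over 19885 genes. Standard errors are the fold change divided by the root of the F statistic. Lengths were tested with limma 3.58.1 on genes with at least 20 expected counts in all libraries. Fold bounds and count intervals reflect counting error alone, because reads copied by PCR are not separate molecules. The tests were also run on simulated data. The length changes set there were larger than those called here, so that run does not bear on these length calls.

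Gene symbols came from a reference name table (26790 of 34289 gene rows), 34 of them completed with the paralogue given in the study's supplementary name lists, and 1663 symbols belong to more than 1 ID. The 92 spike-in rows were 0 and left out. Genes named were those past a threshold, the 10 largest and 10 smallest fitted changes, the 10 highest in TPM, and members of 22 marker lists. The largest and smallest changes were ranked among genes with a symbol, no overlap between groups and an unadjusted p under 0.05. These also needed a mean of at least 5 CPM in the higher group. Members and lists were chosen with earlier results of these data known. Of 307 listed symbols 37 had no ID, and mitochondrially encoded transcripts were not analysed here. A single list member is not reported here by name, but is counted in its list. Alternatives were RLE scaling, DESeq2 1.42.0, other edgeR tests, filters and thresholds, limma on log2 TPM (pseudocounts of 0.1 and 1), replicate blocks, length settings and leaving out each 24 hpf library. Scaling to the library total alone was added after seeing the data. Figures were drawn with matplotlib.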

Additional observations from a re-analysis of the deposited data

Results flagged for a closer look

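The gene si:ch211-241j12.3 (ENSDARG00000043963) is listed because its difference between PGCs and soma was not the same at the 2 stages by a test of that difference itself. The log2 fold change of PGCs over soma was 0.63 ± 0.21 at 24 hpf and 6.43 ± 0.27 at 7 hpf, a difference of -5.80 ± 0.32 (edgeR interaction adjusted p = 0.000442). PGCs had 42.1 and 36.7 CPM at 24 hpf and soma 24.9 and 26 CPM, without overlap in CPM, as in 19.2% of all genes in that direction. In TPM the groups overlapped at 24 hpf, with 3.21 and 2.19 in PGCs and 2.46 and 1.86 in soma. The gene did not pass the threshold in the 24 hpf contrast. In each alternative run for this test the difference stayed below 0 and past the threshold, with edgeR, DESeq2 or limma adjusted p of up to 0.00975.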

How the results depend on the processing

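The count of 6 genes past the threshold became 81 with DESeq2, 158 with edgeR's exact test, 1 with a quasi-likelihood fit of the 4 libraries alone, 103 without a count filter, 3 with glmTreat, and 18 and 16 with limma on TPM (pseudocounts of 1 and 0.1). Leaving out a library gave 3 to 15. With the replicate number as a block within each stage it was 0 (tests of 19885 genes), and with 1 block over all libraries 5. Replicate numbers are shared by title, and the study's splicing methods describe paired comparisons, but shared embryos are not stated. The difference of replicate 1 less 2 in PGCs had a correlation of 0.319, across genes, with that in soma. The 5 called germ cell genes became 3 with RLE factors, 20 in DESeq2, 17 by the exact test, 1 in the 4-library fit, 22 without the filter, 3 for genes averaging 50 counts or more, 3 with glmTreat, 0 with the within-stage replicate block and 3 to 5 with a library left out. The 1 gene with a stage difference became 725 with DESeq2, 986 without a filter, 37 and 19 with limma on TPM, 45 with scaling to the library total and 1 to 2 with a library left out. The 4 length calls became 1 at 100 counts, 0 with the replicate block (lowest limma adjusted p = 0.550) and 4 to 15 with a library left out. Without the shift correction 3 genes passed the length test, and with a median ratio for the shift 3 did. The causes were not tested.

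Of 137 genes followed, 132 kept their direction throughout. On the TPM scale, where the median of all genes moved to -0.24 (pseudocount 1) and -0.31 (0.1), the fitted log2 value turned to -0.16 and -0.16 for celf1, -0.34 and -0.36 for rac1a, -0.11 and -0.13 for tet1, and -0.026 and -0.023 for mlh3. With a library left out it ran from -0.055 to 0.32 for celf1, -0.019 to 0.61 for mlh3 and -0.23 to 1.15 for tdrkh. With 2 libraries a group, and 0.158 to 0.206 CPM for 3 counts, genes near that floor had no reliable fold.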
